A study of Mus musculus with 88 samples.

Results

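The medial prefrontal cortex (mPFC) of unstressed mice of the inbred strains DBA/2Crl (D2) and C57BL/6Crl (B6) was compared gene by gene. The compared libraries were all mPFC libraries whose strain label was one of these and whose stress phenotype label was control, which gave 6 D2 and 6 B6 mice, 12 of the 88 libraries of the series. All were males of 8 weeks at dissection from Charles River, 1 library a mouse. During the stress period of the study the controls had lived in pairs that changed daily, separated so that they did not touch. Afterwards, by the study's methods, controls too were tested for social avoidance of an unfamiliar mouse and were housed singly until dissection. Unstressed here therefore means not defeated. The other mPFC libraries came from mice that went through chronic social defeat stress, in which a mouse is repeatedly attacked by a larger aggressor, and were labelled susceptible (8 D2, 6 B6) or resilient (6 B6). The question was which functions and cell types differed between the strains in mice that had not been defeated.

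B6 and D2 are old inbred strains that differ at many positions of the genome, in coat colour and in anxiety-like behavior, and D2 mice are commonly described as the more anxious. The mPFC is a cortical area behind the control of fear and of the stress response, and it holds excitatory and inhibitory neurons together with astrocytes, microglia and the oligodendrocytes that wrap axons in myelin. In inbred lines, lasting differences in RNA level often arise where a gene is deleted, duplicated or interrupted in a strain. The reads of both strains were aligned to GRCm38, the genome of a C57BL/6 mouse, and levels are given as log2 CPM, the base 2 logarithm of a gene's reads after every library was scaled to the same total (CPM). The part of alignment in a lower value in D2 mice was not tested.

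Of 18946 genes, 5265 (27.8%) differed between D2 and B6 controls at an adjusted p value under 0.05, 2531 (13.4%) higher and 2734 (14.4%) lower in D2 mice. Most differences were small. The median absolute difference over all genes was 0.137 on the log2 scale, with a median SE of 0.0860, and 570 genes (3.01%) were both called and apart by at least 1, of which 207 were higher and 363 lower in D2 mice. Every D2 mouse lay above every B6 mouse at 972 genes (5.13%) and below every B6 mouse at 1248 genes (6.59%). "Called" below means that the limma test passed this threshold over all genes of the table, "higher" and "lower" refer to D2 mice, and a difference is the D2 mean minus the B6 mean in log2 CPM.

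The B6 mice did not form a single group. Of their 18 mPFC libraries, 9 came from mice whose numbers began with C1 or C2 (control replicates 1 to 5 and 4 resilient mice) and 9 from mice numbered C5 or C7 (control replicate 6, 2 resilient mice and all 6 susceptible mice). Gabra2, which encodes the alpha2 subunit of the GABA-A receptor, was between 6.28 and 6.64 in the C1 and C2 mice and between 7.06 and 7.31 in the C5 and C7 mice, where the 14 D2 mice of both phenotypes lay between 7.06 and 7.58. Wdfy1, an endosomal adaptor of toll-like receptor signalling, was between 4.87 and 5.187 in the C1 and C2 mice and between 5.98 and 6.48 in the C5 and C7 mice. Nnt, the mitochondrial nicotinamide nucleotide transhydrogenase, was between 5.05 and 5.26 in the C1 and C2 mice, between 5.63 and 5.93 in the C5 and C7 mice and between 4.96 and 5.35 in D2 mice. At these 3 genes the 2 kinds of B6 mice did not overlap, whatever their phenotype. Nnt and Gabra2 are known as genes at which C57BL/6J mice carry variants that lower expression and C57BL/6N mice do not. The labels name neither substrain, the study's methods name C57BL/6NCrl for all B6 mice, and the genotype of these mice was not tested.

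**Figure D1:**
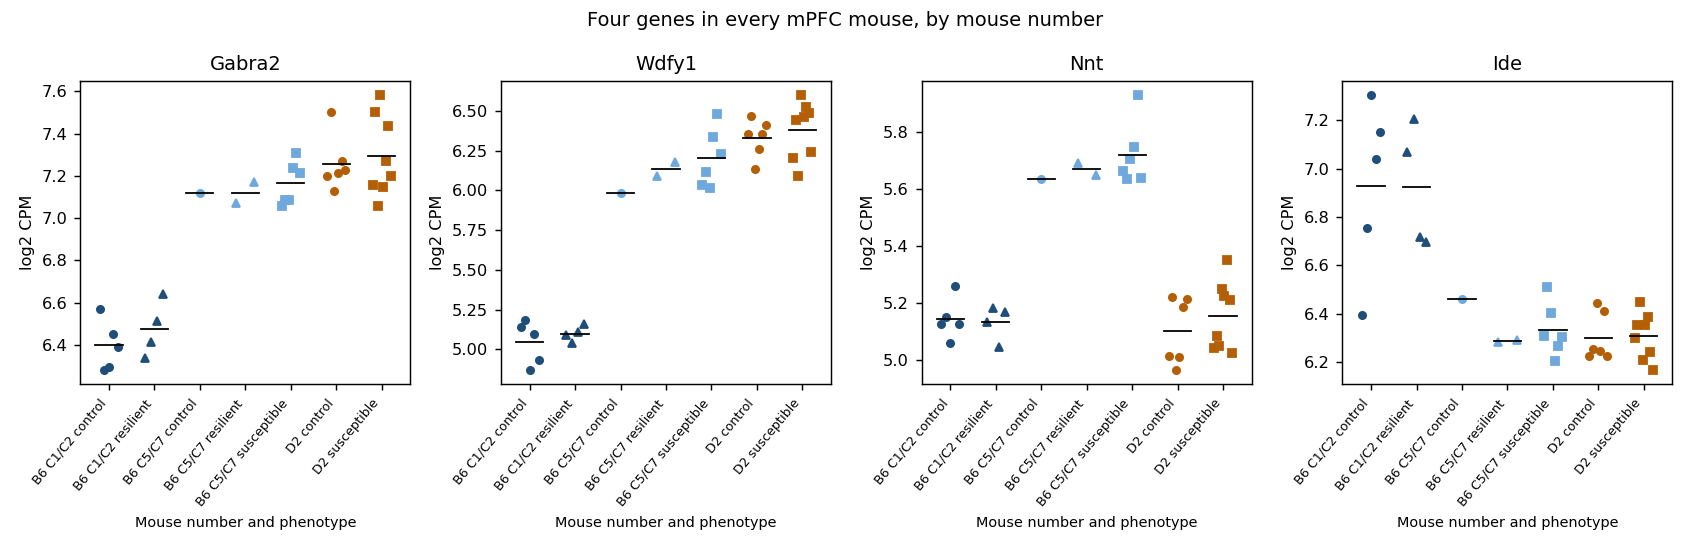
Log2 CPM (vertical axis) of Gabra2, Wdfy1, Nnt and Ide in every mPFC library, with mice grouped by strain, the start of the mouse number (B6 only) and phenotype. Points are mice and bars are group means. Gabra2, Wdfy1 and Nnt separate the B6 mice numbered C1 or C2 from those numbered C5 or C7, while the ranges of Ide overlap.

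With the start of the mouse number as a term, which was added after the split had been seen, 30 genes (0.158%) differed between the 2 kinds of B6 mice, 11 higher and 19 lower in the C5 and C7 mice, and 1679 had an unadjusted p under 0.05. Beside Gabra2 (0.68 ± 0.09, SE) and Wdfy1 (0.998 ± 0.098), they included the pseudogenes Gm28438 (5.59 ± 0.46) and Tmem181b-ps (1.118 ± 0.111), the predicted gene Gm15446 (-2.67 ± 0.24), the complement inhibitor Cd59a (1.03 ± 0.12) and Ugt8a (-0.70 ± 0.13), the enzyme that makes the galactolipids of myelin. Set against the C1 and C2 mice, D2 controls differed at 5265 genes, and against the C5 and C7 mice at 2687. At 2380 genes both differences were called in the same direction. Since 5 of the 6 B6 controls and none of the 6 B6 susceptible mice were numbered C1 or C2, the strain differences in control and in susceptible mice rest on different kinds of B6 mice. The term rests on control replicate 6 and the 2 resilient mice numbered C5, because all susceptible B6 mice had such numbers, so the difference from C5 and C7 mice has larger errors. Of 153 named genes, 55 kept their direction but lost their call against the C5 and C7 mice, and Cd59a lost it with a change of direction. Both differences are given only for some of the named genes.

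Markers of neighbouring tissue also differed between libraries. The mean over 10 markers of striatal projection neurons was between 3.42 and 4.65 in B6 replicates 1, 3, 4 and 5 and was 3.91 in D2 replicate 6, but between 2.01 and 2.74 in the other 7 controls. All 10 markers had lower means in D2 mice (median difference -1.32) and 4 of them were called, against 27.8% of all genes, among them Gpr6 (-1.77 ± 0.53). Without B6 replicate 2 or without D2 replicate 6, 7 were called. The difference of this list depended on the B6 mice compared. The median was -1.47 with 7 called against the C1 and C2 mice, and -0.153 with none called against the C5 and C7 mice (Gpr6, -1.97 ± 0.51 and -0.77 ± 0.70). The test within B6 called no striatal marker (median -0.927). The list means of the B6 mice overlapped, between 2.32 and 4.65 in the C1 and C2 mice and between 2.16 and 3.05 in the C5 and C7 mice. Over 10 olfactory bulb markers, the mean was -0.65 in B6 replicate 2 and between -0.13 and 0.00 in D2 replicates 3, 5 and 6, and between 2.16 and 3.42 in the rest, and no marker was called. The excitatory neuron list had a mean of 6.32, 6.55 and 6.75 (lowest, median and highest B6 mouse) and of 6.53, 6.71 and 6.91 in D2 mice, and the cortical layer list lay between 5.53 and 5.74 in all 12 mice. Only controls with little striatal signal were compared in a further fit (2 B6 and 5 D2 mice), and 2204 genes were called there.

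The 10 protein-coding genes that led the list of higher genes ranged from genes near absent in B6 mice to genes expressed in both strains. Stab2 (chr10:86841198-87008025, GRCm38), a scavenger receptor for hyaluronan that is best known from liver sinusoids, was -1.03, -0.53 and 0.15 in the lowest, median and highest B6 mouse and 5.74, 6.54 and 7.25 in D2 mice, a difference of 7.03 ± 0.29 (SE, n = 6 and 6, limma adjusted p = 1.57e-17). This corresponds to a mean level 131 times as high, at 96.4 CPM in D2 mice. Cfap54 (chr10:92775619-93081618), a protein of motile cilia, was well expressed in both strains, between 5.09 and 5.48 in B6 and between 7.118 and 7.294 in D2 mice, and it was 3.80-fold higher (1.92 ± 0.07). Dnah6, a dynein of ciliary axonemes, differed by 3.62 ± 0.21. The ependymal list, which marks the ciliated cells of the ventricle wall, did not follow these genes. Of its 5 measured members 2 (40.0%) were called, both lower (Foxj1 -0.96 ± 0.27, Dynlrb2 -0.52 ± 0.19), against 14.4% of all genes called lower. Foxj1 differed by -1.07 ± 0.25 from the C1 and C2 mice and by -0.38 ± 0.345 from the C5 and C7 mice. Dynlrb2 was called against neither kind (-0.49 ± 0.19, limma adjusted p = 0.0603, and -0.67 ± 0.265, adjusted p = 0.0905). It also lost its call in 6 of the fits that each left out 1 control mouse.

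Serpina1b, a member of the alpha-1-antitrypsin cluster (5.51 ± 0.22), the class I gene H2-Q10 (5.37 ± 0.46), the sperm channel subunit Catsperg2 (4.98 ± 0.38), the chemokine receptor Ccr6 (4.83 ± 0.39) and the predicted genes Gm9936 (4.88 ± 0.30), Gm8909 (4.73 ± 0.33) and Gm10260 (4.68 ± 0.22) completed the 10 leading genes. In all 10, every D2 mouse lay above every B6 mouse. Serpina1b was between -5.79 and -5.14 in B6 mice, and values this low are those of genes with no or few reads, so the size of such a difference depends on the small count added before the logarithm. Serpina1b and H2-Q10 stand among closely related genes, between which reads can be split.

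**Figure D2:**
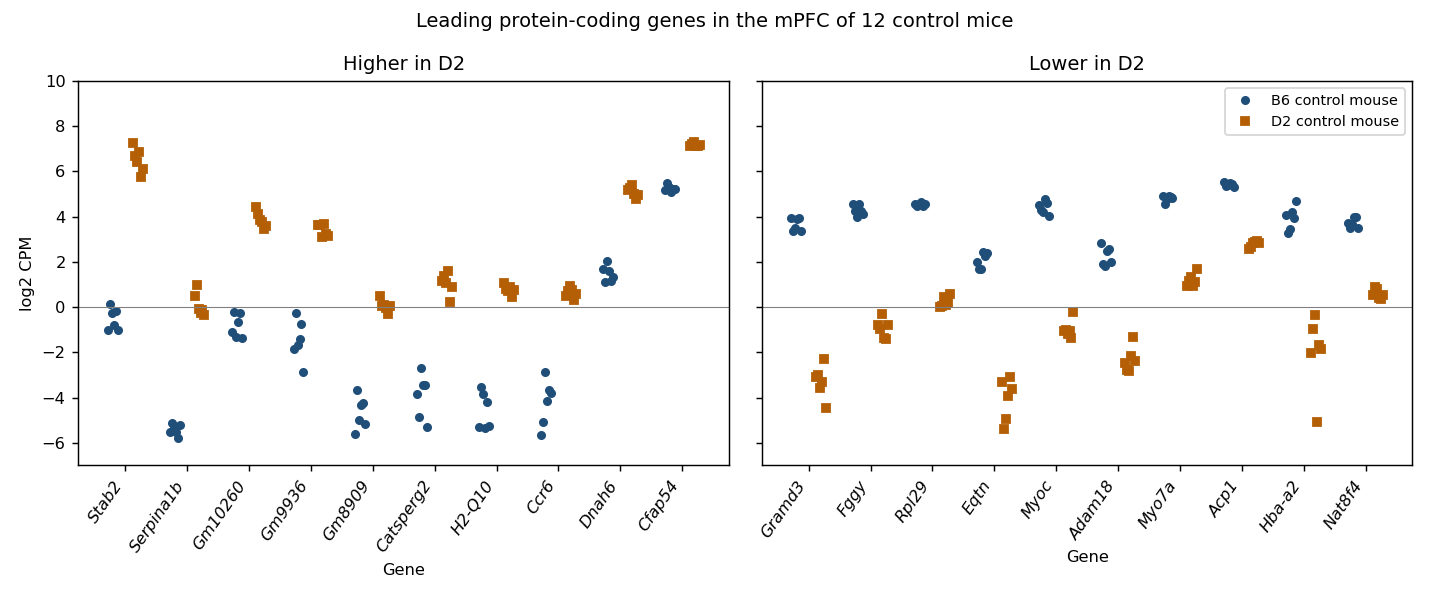
Log2 CPM (vertical axis) of the 10 protein-coding genes that led the list in each direction, in 6 B6 (circles) and 6 D2 (squares) control mice. In every gene shown the points of the strains do not overlap, and Stab2 and Gramd3 lie furthest apart, by 7.03 and -6.96.

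Among the genes that were lower in D2 mice, Gramd3 (chr18:56400337-56503792), which encodes a GRAM domain protein, was 3.37, 3.69 and 3.96 in B6 mice and -4.44, -3.21 and -2.30 in D2 mice, a difference of -6.96 ± 0.37 (adjusted p = 3.76e-15). Acp1 (chr12:30893326-30911589), the low molecular weight protein tyrosine phosphatase, was present in both strains, at 5.33, 5.42 and 5.53 in B6 and 2.58, 2.84 and 2.92 in D2 mice. Its level in B6 mice was 6.24 times that in D2 mice (-2.64 ± 0.07, adjusted p = 4.50e-22). Rpl29, a protein of the large ribosomal subunit, differed by -4.32 ± 0.12 and the carbohydrate kinase gene Fggy by -5.22 ± 0.18. The sperm genes Eqtn (-6.13 ± 0.34) and Adam18 (-4.59 ± 0.23), the glaucoma gene Myoc (-5.39 ± 0.26), the hair cell myosin Myo7a (-3.62 ± 0.13) and the acetyltransferase Nat8f4 (-3.14 ± 0.12) lay below every B6 mouse in every D2 mouse.

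Hba-a2, which encodes alpha globin, was 3.263, 4.005 and 4.709 in B6 and -5.06, -1.76 and -0.36 in D2 mice (-5.93 ± 0.54). Its neighbour and near-identical copy Hba-a1 was 4.045, 4.167 and 4.848 in B6 and 4.093, 4.505 and 5.208 in D2 mice (0.23 ± 0.21, adjusted p = 0.435). The levels of the 2 copies are uncertain because they share reads. On the blood marker list, 3 of 6 genes were called, all lower, among them the erythroid enzyme Alas2 (-0.54 ± 0.17).

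Outside the protein-coding genes, RNAs of ribonuclease P led the list of higher genes. Rprl3 and Rprl2, which are annotated as copies of the RNA of ribonuclease P, differed by 8.31 ± 0.36 and 6.56 ± 0.46. Rprl3 was -3.27, -1.53 and -0.69 in B6 mice and 6.19, 6.63 and 7.13 in D2 mice. Rpph1, the main RNA of this enzyme, which trims the 5′ ends of transfer RNAs, moved the other way, from 8.65, 8.80 and 8.95 in B6 to 6.88, 7.44 and 7.92 in D2 mice (-1.39 ± 0.16). How reads were divided between Rpph1 and its copies was not tested, so the levels of each are uncertain. The pseudogene Tmem181c-ps was higher by 6.11 ± 0.40. The transcript 1500004A13Rik (-6.25 ± 0.15), the pseudogene Gm9493 (-5.58 ± 0.15) and the small nuclear RNA Gm22513 (-5.80 ± 0.26), whose mean fell from 811 CPM in B6 to 15.1 CPM in D2 mice, led in the other direction. By annotation class, 30.0% of protein-coding genes, 27.1% of lincRNAs, 17.1% of snoRNAs and 2.55% of snRNAs were called, but 13.4% of the 187 snoRNAs were called with a difference of at least 1, against 2.31% of protein-coding genes.

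Of the 32 snoRNAs called, 26 stand in a single place. On chromosome 7, between 58 and 60 Mb, 36 of 54 tested genes (66.7%) were called and 26 of them differed by at least 1. This window is part of the imprinted region of Prader-Willi and Angelman syndrome, where a long RNA made from the paternal copy, Snhg14, carries long series of small nucleolar RNA genes, guides of RNA modification, in its introns. Of 38 snoRNA genes measured there, 10 were higher and 16 lower in D2 mice. The 19 copies of 79 bases had 5 higher and 11 lower, and the 15 copies of 94 bases, some of which carry Snord116 in their name, 3 higher and 4 lower.

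The following copies show how alike the sequences with opposite differences are. All are on the minus strand in the GENCODE M21 transcripts of GRCm38, written 5′ to 3′, and capitals mark bases that differ from Gm25156. Gm25156 (chr7:59353283-59353361) is the copy of 79 bases with the most negative difference, Gm25229 (chr7:59414091-59414169) that with the most positive one, and Gm25088 (chr7:59452983-59453061) was not called.
Gm25156: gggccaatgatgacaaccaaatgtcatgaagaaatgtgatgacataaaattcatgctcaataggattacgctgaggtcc
Gm25229: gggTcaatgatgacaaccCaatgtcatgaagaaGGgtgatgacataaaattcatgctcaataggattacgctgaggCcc
Gm25088: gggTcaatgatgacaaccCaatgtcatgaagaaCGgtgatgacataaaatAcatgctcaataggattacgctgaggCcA
Gm25229 differs from Gm25156 by C4T, A19C, A34G, T35G and T77C (Gm25156 base, position from the 5′ end, Gm25229 base), and is 93.7% identical to it.

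Gm25156 was 5.015, 5.335 and 6.396 in B6 mice and -1.48, -0.23 and 0.37 in D2 mice (-5.92 ± 0.36, adjusted p = 7.85e-14). Gm25229 was -2.73, -1.53 and -0.83 in B6 mice and 0.91, 1.60 and 2.55 in D2 mice (3.303 ± 0.34, adjusted p = 6.63e-09). Thus both copies separated the strains without overlap, in opposite directions. Gm25088 was 0.22, 0.84 and 1.62 in B6 and -0.39, 0.68 and 1.47 in D2 mice (-0.14 ± 0.28, adjusted p = 0.747).

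The copies of 94 bases also differed in both directions, but fewer were called, 7 of 15 against 16 of the 19 copies of 79 bases. Among those of 94 bases, D2 mice lay without overlap above B6 mice at 1 copy and below at 1. These are the called copies shown here. Among those of 79 bases this held for 4 and 11. Gm24264 (chr7:59698307-59698400) was not called, Gm22776 (chr7:59764088-59764181) was lower, and Gm23862 (chr7:59673461-59673554) was higher in D2 mice, and capitals mark what differs from Gm24264.
Gm24264: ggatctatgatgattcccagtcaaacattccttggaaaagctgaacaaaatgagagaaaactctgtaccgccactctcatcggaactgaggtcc
Gm22776: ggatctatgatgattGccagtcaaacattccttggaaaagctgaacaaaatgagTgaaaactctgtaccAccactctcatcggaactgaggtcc
Gm23862: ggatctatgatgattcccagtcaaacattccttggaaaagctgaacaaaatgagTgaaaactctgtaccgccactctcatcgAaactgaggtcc
Gm22776 (C16G, A55T, G70A) was 1.88, 2.78 and 4.48 in B6 and -3.53, -2.55 and -0.84 in D2 mice (-5.39 ± 0.40). Gm23862 (A55T, G83A) was 0.08, 0.96 and 2.56 in B6 and 2.575, 3.124 and 3.545 in D2 mice (1.96 ± 0.46). Gm23767, which carries A55T and G70A but not C16G, was 3.11, 3.79 and 5.29 in B6 and 4.350, 4.886 and 5.299 in D2 mice (0.87 ± 0.38, adjusted p = 0.0847). Because the copies share most of their bases, which copy a read belongs to is uncertain.

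The host RNA and its neighbours differed in size and direction. Snhg14 was 9.59, 9.64 and 9.86 in B6 and 9.40, 9.48 and 9.54 in D2 mice (-0.19 ± 0.05), and Snrpn, which encodes a spliceosome protein, differed by -0.19 ± 0.05. Ube3a, the ubiquitin ligase lost in Angelman syndrome, was not called (0.05 ± 0.04, adjusted p = 0.301). The unclassified transcripts Gm44742 (-2.48 ± 0.13, from 18.2 to 3.28 CPM) and 9330162G02Rik (-1.08 ± 0.07, from 519 to 246 CPM) of the same window were lower in every D2 mouse than in any B6 mouse. In the mPFC of susceptible mice 33 genes of the window were called. In the bed nucleus of the stria terminalis, compared below, none was called, and some snoRNA copies had no value. Gm44742 differed there by -0.50 (edgeR adjusted p = 0.648) and 9330162G02Rik by 0.015 (adjusted p = 0.989).

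**Figure D3:**
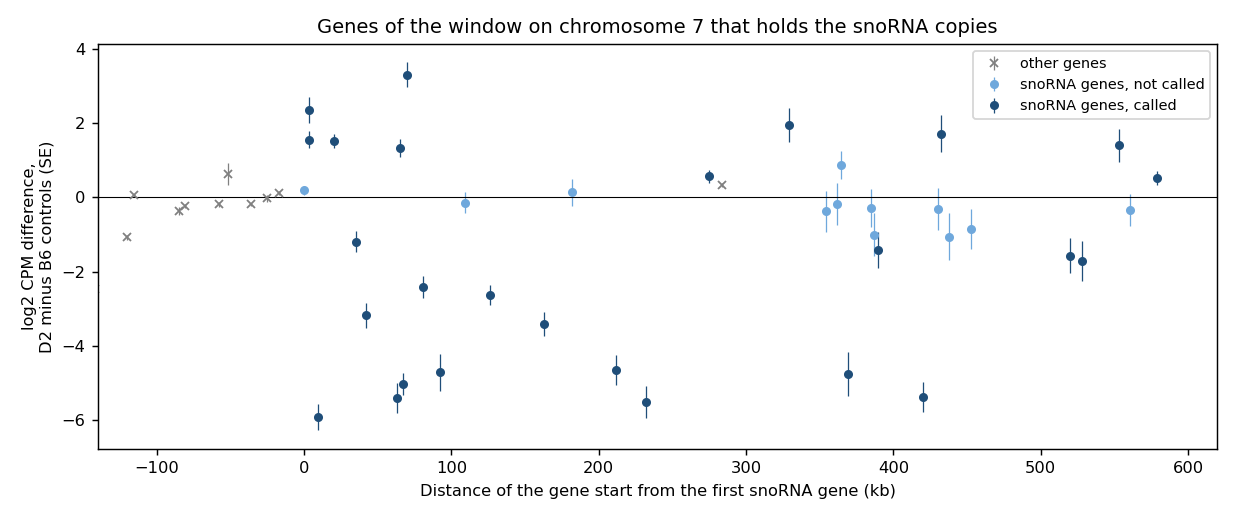
Difference in log2 CPM between D2 and B6 controls with its SE (vertical axis) for genes of the chromosome 7 window, by the distance of the gene start from the first snoRNA gene in kilobases (horizontal axis). Dark circles are called and light circles not called snoRNA genes, and crosses are other genes. The snoRNA copies range from -5.92 to 3.303, with both directions among neighbours.

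Genes of mature oligodendrocytes were lower in D2 mice. All 14 markers were called (background 14.4% lower), with a median difference of -0.85. The mean over the list was 5.65, 6.42 and 6.63 in B6 and 5.11, 5.28 and 5.68 in D2 mice, and the overlap came from B6 replicate 6, at 5.65, the only control numbered C7. Mal, a proteolipid of compact myelin, was 7.10, 7.88 and 8.09 in B6 and 6.20, 6.31 and 6.89 in D2 mice (-1.28 ± 0.20). Mobp (-1.22 ± 0.21), Opalin (-1.18 ± 0.27), Ermn (-0.87 ± 0.19) and Mbp (-0.71 ± 0.17), which build or shape the myelin sheath, were also called. In bulk tissue, fewer cells of a type and less RNA per cell cannot be told apart.

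This difference depended on which B6 mice were compared. Against the C1 and C2 mice the median was -0.95 with all 14 called, and against the C5 and C7 mice it was -0.315 with 1 called (Mal, -0.71 ± 0.23). The list mean lay between 5.90 and 6.63 in the 9 C1 and C2 mice and between 5.20 and 5.88 in the 9 C5 and C7 mice, without overlap, and between 4.91 and 5.73 in the 14 D2 mice. The test of this difference within B6 called 1 of the 14 (Ugt8a), with a median of -0.69. Oligodendrocyte genes also moved with the striatal signal, which was highest in B6 replicates 3 and 5. With the striatal mean as a covariate 11 were called (median -0.52), and among the 7 controls with little striatal signal 1 was called (median -0.43). Within the 4 library preparation sets that held both strains the list differed by -0.88, -0.23, -1.39 and -0.90, and a fit of the 12 controls with the set as a term called 7, with a median of -0.828 and all 14 at an unadjusted p under 0.05. The part of striatal tissue was not tested.

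Precursor and lineage genes gave a mixed picture. Of 12 precursor markers, 2 were called (16.7%), both lower, near the 14.4% of all genes called lower. Sox10, the transcription factor that all cells of the oligodendrocyte lineage require, was 3.23, 3.54 and 3.85 in B6 and 2.129, 2.395 and 2.685 in D2 mice (-1.16 ± 0.12). Unlike most myelin genes, it was called against both kinds of B6 mice (-1.20 ± 0.12 and -0.97 ± 0.17). Gpr17, a receptor of differentiating precursors, differed by -0.45 ± 0.09. The defining precursor gene Pdgfra was not called. Adamts4, a matrix protease expressed in oligodendrocytes, was 4.125, 4.681 and 4.840 in B6 and 2.88, 3.03 and 3.53 in D2 mice (-1.40 ± 0.16), again against both kinds (-1.48 ± 0.14 and -0.98 ± 0.19).

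**Figure D4:**
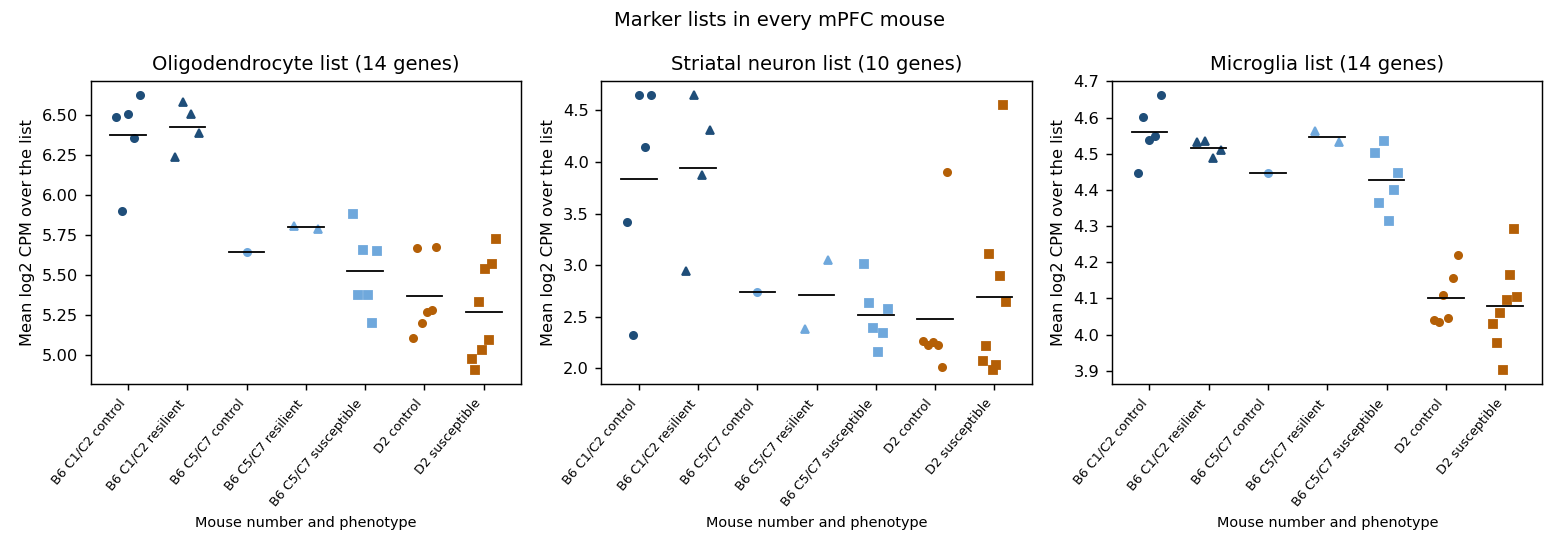
Mean log2 CPM over the oligodendrocyte, striatal neuron and microglia lists (vertical axes) in every mPFC library, with mice grouped by strain, the start of the mouse number (B6 only) and phenotype. Points are mice and bars are group means. Oligodendrocyte means separate the 2 kinds of B6 mice, while microglia means separate D2 from all B6 mice.

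Most microglia markers, 12 of 14, had lower means in D2 mice, and a few of them differed strongly. The mean over 14 markers was 4.45, 4.54 and 4.66 in B6 and 4.04, 4.08 and 4.22 in D2 mice, without overlap. The 6 genes called (42.9%) were all lower, against 14.4% of all genes called lower, and the median member differed by -0.18. Fcrls, a microglial receptor related to Fc receptors, was 4.53, 4.75 and 5.00 in B6 and 2.36, 2.53 and 2.803 in D2 mice, and was 4.65 times as high in B6 mice (-2.22 ± 0.10, adjusted p = 2.48e-16). It differed as much from both kinds of B6 mice (-2.25 ± 0.10 and -2.07 ± 0.14). C1qc and C1qb, subunits of the C1q complex that starts the classical complement cascade, both differed by -1.14, C1qc with an SE of 0.12. The other members called were Siglech (-0.51), Tmem119 (-0.35) and Cx3cr1 (-0.26), while Csf1r, the receptor on which microglia depend, was not. Against the C5 and C7 mice 6 members were called, among them Fcrls and C1qc.

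Of 20 complement genes 8 were lower and 1 higher, against 14.4% and 13.4% of all genes. C5ar2, a receptor for the C5a fragment, was 0.16, 0.96 and 1.17 in B6 and -3.45, -2.11 and -1.70 in D2 mice (-3.25 ± 0.27). C1s1 (-0.97), a protease of the C1 complex, and C3ar1 (-0.65), the receptor for C3a, were also lower. The gene that was higher was Cd59a (0.53 ± 0.19), and its direction depended on the B6 mice compared, since it was 0.70 ± 0.11 from the C1 and C2 mice and -0.33 (adjusted p = 0.146) from the C5 and C7 mice.

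Interferon-stimulated genes were lower on the whole. Of 41 measured, 23 were called lower and 1 higher (background 14.4% and 13.4%), with a median of -0.37. Their mean was 2.27, 2.46 and 2.66 in B6 and 1.93, 2.01 and 2.172 in D2 mice, without overlap. Bst2, or tetherin, which holds budding viruses at the cell surface, was 0.36, 0.61 and 0.79 in B6 and -2.46, -1.46 and -0.67 in D2 mice (-2.20 ± 0.26). The guanylate-binding protein Gbp9 was between 2.843 and 3.433 in B6 and between 1.51 and 1.87 in D2 mice (-1.44 ± 0.09). The immunity-related GTPases Irgm2 (-1.24) and Igtp (-1.10) and the transcription factor Irf7 (-0.53) were lower too. Xaf1, an interferon-induced gene linked to cell death, went the other way, from 1.89, 2.27 and 2.54 to 3.122, 3.287 and 3.678 (1.09 ± 0.11). The count varied with the mice compared, from 14 to 24 called when a mouse was left out (lowest without B6 replicate 5, which had the highest list mean). It was 11 with the striatal mean as a covariate and 12 against the C5 and C7 mice. The median was -0.35 against the C5 and C7 mice and also against the C1 and C2 mice.

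Genes of antigen presentation in the major histocompatibility complex differed in both directions, as 4 of 25 were higher and 6 lower (40.0% called against 27.8%). Beside H2-Q10, H2-Q2 (2.15 ± 0.45) and H2-Q6 (1.301) were higher. H2-T22 was 3.93, 4.07 and 4.16 in B6 and 2.689, 2.802 and 2.969 in D2 mice (-1.25 ± 0.06), and H2-K2 (-1.18 ± 0.27), H2-T23 (-0.91) and H2-K1 (-0.54) were lower as well. B2m, the common light chain of class I molecules, differed by -0.19. The strains carry different haplotypes here, and reads of these similar and variable genes can be assigned to a wrong copy or lost, so the sizes are uncertain.

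Among other glial and vascular cells, 5 of 12 astrocyte markers were lower, none higher, with a median of -0.14. They included the gap junction gene Gjb6 (-0.44 ± 0.06) and the water channel Aqp4 (-0.32 ± 0.09), while Gfap and Gja1 were not called. Kcnj10, the inward rectifier through which astrocytes take up potassium, instead was 5.61, 5.88 and 6.10 in B6 and 6.66, 6.90 and 7.04 in D2 mice (0.99 ± 0.10). Its neighbour Kcnj9, a channel of neurons, was not called (0.15 ± 0.09, adjusted p = 0.248). Of 12 endothelial markers 3 were lower (Flt1, -0.24 ± 0.06) and of 9 pericyte and smooth muscle markers 2 (Pdgfrb, -0.24 ± 0.06). The shares called lower in the astrocyte, endothelial and pericyte lists all lay above the background of 14.4%, but the lists are short. Against the C5 and C7 mice, 2 astrocyte markers and 1 endothelial marker were called lower. Of the pericyte and smooth muscle markers, 1 was called higher there and none lower. Choroid plexus markers had none called, and in the meningeal list Col1a1 was higher (1.26 ± 0.39, but 0.79 ± 0.54 and not called from the C5 and C7 mice) and Slc22a6 lower (-0.55 ± 0.19).

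Few markers of excitatory neurons and interneurons were called, against 27.8% of all genes. The excitatory list had 1 of 9 called (Nrgn, a postsynaptic calmodulin-binding protein, 0.50 ± 0.13) and the interneuron list 2 of 20, Pvalb (0.45 ± 0.14) and Vip (0.28 ± 0.07), all higher and all with overlapping groups. Cortical layer markers had 3 higher and 2 lower of 16 (31.2% called, near that background). Cux2 of the upper layers (0.36 ± 0.08), Etv1 of layer 5 (0.34) and Ntsr1 of layer 6 (0.54 ± 0.13) were higher, and Cplx3 (-0.55 ± 0.18) and Nr4a2 (-0.61 ± 0.18), both of the deepest cells, lower. Against the C5 and C7 mice no layer marker was called, although differences such as those of Ntsr1 (0.52 ± 0.19) and Nr4a2 (-0.60 ± 0.26) were of like size there and had larger errors.

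Ion channel and amino acid receptor lists were called below the background share. Potassium channels had 12 higher and 2 lower of 54, with a median of 0.10. Kcnd1, a channel of transient currents, differed by 0.52, and the leak channels Kcnk12 and Kcnk3 by 0.48 and 0.37. The share called, 25.9%, was close to the 27.8% of all genes, and only 2 channels were called among the 7 controls with little striatal signal, 1 in each direction. Glutamate receptors had 4 higher and 1 lower of 24 (20.8%), led by Grm2, a presynaptic autoreceptor, at 3.863, 4.203 and 4.352 in B6 and 4.35, 4.77 and 4.92 in D2 mice (0.57 ± 0.12). Of 15 GABA receptor genes only Gabra2 and Gabrb2 (0.21 ± 0.07) were called. Gabra2 was 6.28, 6.42 and 7.12 in B6 and 7.129, 7.220 and 7.501 in D2 mice (0.74 ± 0.13), but its difference was 0.85 ± 0.08 from the C1 and C2 mice and 0.18 ± 0.11 (adjusted p = 0.315) from the C5 and C7 mice. For Wdfy1 (1.131 ± 0.178) these values were 1.297 ± 0.085 and 0.30 ± 0.12 (adjusted p = 0.0857).

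Genes of the monoamine systems had 7 higher and 3 lower of 31, and the 32.3% called was near the background of 27.8%. The serotonin receptors Htr6 (0.75 ± 0.26), Htr7 (0.47 ± 0.08) and Htr2a (0.38) and the adrenoceptors Adra1d (0.44) and Adrb1 (0.35) were higher. The histamine genes Hrh1 (-0.56 ± 0.15) and Hnmt (-0.42 ± 0.07) and the monoamine oxidase Maob (-0.41) were lower, but the histamine receptors Hrh2 (0.28) and Hrh3 (0.32) higher. Opioid and cannabinoid genes had 3 of 14 called (21.4%, below the 27.8%), all higher. Among them were the delta receptor Oprd1 (0.29 ± 0.09) and Faah (0.33 ± 0.09), which breaks down anandamide.

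In the list of the stress axis, 4 of 28 genes were higher and 2 lower (21.4%), below the background. Hsd11b1, the enzyme that regenerates active corticosterone inside cells, was 3.16, 3.35 and 3.48 in B6 and 2.44, 2.64 and 2.96 in D2 mice, without overlap (-0.68 ± 0.12, adjusted p = 4.76e-05). Crhbp, the protein that binds and masks corticotropin-releasing hormone, was 3.77, 4.10 and 4.41 in B6 and 4.34, 4.56 and 4.69 in D2 mice (0.44 ± 0.10). The glucocorticoid-induced genes Fkbp5 (0.41) and Zbtb16 (0.42 ± 0.12) were higher, and the receptors Nr3c1 and Nr3c2 were not called. None of the list's other glucocorticoid-induced genes, such as Sgk1 and Tsc22d3, was called higher. The other gene called lower was Mertk, by -0.26 ± 0.06 from the C1 and C2 mice and by -0.22 ± 0.08 from the C5 and C7 mice. Clock genes had 5 higher and 2 lower of 22 (31.8% called, near the background of 27.8%). Nr1d1 (0.59 ± 0.15), Bhlhe41 (0.55 ± 0.08), Dbp (0.49) and Per1 (0.36) were higher and Arntl2 (-0.45 ± 0.07) lower. The hour of dissection of each mouse was not used here. Only 2 of 22 immediate early genes were called (9.09%), Jund (0.23 ± 0.08) and Nr4a2.

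Some metabolic genes separated the strains without overlap. Glo1 (chr17:30584936-30626871), glyoxalase I, which detoxifies methylglyoxal and is known for its link with anxiety-like behavior across inbred strains, was 4.63, 4.83 and 5.02 in B6 and 5.52, 5.62 and 5.78 in D2 mice, 1.75-fold higher (0.81 ± 0.06, adjusted p = 1.54e-11). Of the 37 glutathione and methylglyoxal genes, 7 were higher and 6 lower (35.1% called against 27.8% of all genes). Glrx (0.55 ± 0.06) stood at 1 end and Gstm7 (-0.53 ± 0.12) and Gsto1 (-0.48 ± 0.06) at the other. Nnt was not called (-0.12 ± 0.10, adjusted p = 0.386). It differed by -0.56 ± 0.08 from the C5 and C7 mice and by -0.04 ± 0.06 from the C1 and C2 mice. Alad (chr4:62509169-62519918), the second enzyme of haem synthesis, was 2.799, 3.110 and 3.344 in B6 and 4.57, 4.63 and 4.76 in D2 mice, 2.93-fold higher (1.55 ± 0.07). Scg5 (chr2:113776362-113829121), the chaperone of the prohormone convertase PC2, was 7.25, 7.39 and 7.51 in B6 and 8.22, 8.39 and 8.56 in D2 mice, 2.01-fold higher, and it was among the 5 genes with the largest rise in CPM (from 167 to 337).

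Cholesterol synthesis genes had 7 higher and 3 lower of 26 (38.5% called against 27.8%), all by less than 0.4. Of 82 cytosolic ribosomal protein genes 23 were called lower and 1 higher, against 14.4% and 13.4% of all genes. The share called in either direction, 29.3%, was near the 27.8%, but the calls were nearly all lower. In D2 mice 60 of the 82 had a lower mean and 22 a higher one. Rpl29 and Rpl3 (5.18, 5.33 and 5.39 in B6, 2.92, 3.11 and 3.56 in D2 mice, -2.15 ± 0.08) stood far from the median of -0.12, and Rpl15 was the gene higher (0.19 ± 0.03). Ribosomal protein genes have many pseudogene copies that share their reads, so the levels of single genes are uncertain. Nuclear subunits of the respiratory chain and ATP synthase had 7 higher and 12 lower of 85 (22.4%), with Cox7c (-0.90 ± 0.10) and Atp5g2 (0.72 ± 0.17) at the ends. On the mitochondrial genome, 4 of 23 genes were lower and 2 higher (26.1% called). mt-Co1 (-0.33 ± 0.12) and mt-Cytb (-0.38 ± 0.13), subunits of complexes IV and III, overlapped between the strains. mt-Nd3 (-4.32 ± 0.74) followed the mouse numbers, between 1.23 and 3.52 in the C1 and C2 mice, between -4.97 and -0.56 in the C5 and C7 mice and between -4.42 and -1.43 in D2 mice. The histone gene Hist1h4m (-5.02 ± 0.76) and the pseudogene Gm28438 (5.61 ± 0.97) did so as well, and neither was called against the C5 and C7 mice (-1.61 ± 0.57 and 0.95 ± 0.55). Gm28438 moved opposite to mt-Nd3, with means of -0.76 in the C1 and C2 mice, 5.05 in the C5 and C7 mice and 5.59 in D2 mice. Whether reads of mt-Nd3 and Gm28438 were split between them was not tested, so the level of mt-Nd3 is uncertain.

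Matrix genes of the perineuronal net had 3 higher and 3 lower of 15 (40.0% called against 27.8%). Has1, a hyaluronan synthase, was -1.58, -0.99 and -0.47 in B6 and 0.25, 0.516 and 1.004 in D2 mice (1.60 ± 0.27), and the link protein Hapln4 was higher by 0.58 ± 0.14. The link protein Hapln2, of myelinated nodes, was lower (-0.79 ± 0.18), by -0.87 ± 0.165 from the C1 and C2 mice and by -0.39 ± 0.23 from the C5 and C7 mice. Of the coat colour genes 6 passed the filter, and only Myo5a, the motor mutated in dilute D2 mice, was called, at 10.09, 10.24 and 10.28 in B6 and 9.823, 10.01 and 10.193 in D2 mice (-0.20 ± 0.06). Tyrp1, which carries the brown mutation of D2 mice, was near 1 CPM and was not called (-0.67 ± 0.86, adjusted p = 0.603).

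Clustered gene families were also listed. Of 56 clustered protocadherins, the cell surface codes by which neurons tell their own branches from others, 27 were higher and 9 lower (64.3% called against 27.8%), with a median of 0.16. Pcdhb3 was 1.97, 2.28 and 2.44 in B6 and 3.52, 3.71 and 3.99 in D2 mice (1.48 ± 0.09), and Pcdha1 differed by 1.37 ± 0.16. Pcdhga11 was 4.88, 5.12 and 5.24 in B6 and 3.595, 3.771 and 4.001 in D2 mice (-1.31 ± 0.08), and Pcdhgb6 differed by -1.44 ± 0.09. Genes of the alpha cluster share their last exons, as do those of the gamma cluster, so reads from these exons cannot be placed on a single gene. Among 331 genes with Zfp symbols, a family whose members mostly encode DNA-binding repressors, 78 were higher and 43 lower (36.6% called against 27.8%). They ran from Zfp457 (1.40 ± 0.13) to Zfp125, annotated as a pseudogene (-6.46 ± 0.37). Replication-dependent histones had 5 higher and 12 lower of 40 (42.5% called against 27.8%). Of the predicted genes with Gm symbols 20.1% were called, below the background.

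Called genes were spread over the genome but not evenly. The share called was between 17.8% on the X chromosome and 33.4% on chromosome 4. In 730 windows of 2 Mb with at least 10 tested genes, the median share was 26.5%, and it ran from 0 to 83.3%, with 37 windows over 50%. The leading window, chr4:146000001-148000000, held 15 called of 18 tested and a family of zinc finger genes, with Zfp984 lower (-4.17 ± 0.39) and Zfp992 higher (1.29 ± 0.14). In chr13:66000001-68000000, with Zfp457, 24 of 34 were called. The window chr13:118000001-120000000, with 8 of 11 called, all lower, held Ccl28, a chemokine of mucosal tissue (-2.72 ± 0.32), and Nnt. Near the start of chromosome 9, 7 predicted genes between 3 and 3.04 Mb, Gm10722, Gm11168, Gm10719, Gm10718, Gm10717, Gm17535 and Gm10715, were higher by 1.32 to 1.73, and none of them was called in susceptible mice.

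The differences were set beside those in other mice of the same strains. Between the 8 D2 and 6 B6 susceptible mice, 3317 mPFC genes (17.5%) were called. Of the 5265 genes called in controls, 4933 (93.7%) had the same direction there and 2552 (48.5%) were also called in it. The test of the difference between both contrasts called no gene in limma, while 1766 genes had an unadjusted p under 0.05. A second comparison was at hand in the bed nucleus of the stria terminalis (BNST), from other mice (5 D2 and 5 B6 controls) and with another library kit, where edgeR called 439 of 17515 genes (2.51%) on raw counts. There 2747 of the 4793 genes that were measured (57.3%) had the same direction.

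The agreement rose with the size of the difference in controls. For differences under 0.25, 90.8% had the same direction in susceptible mice and 46.5% in the BNST. Between 0.5 and 1 these shares were 94.9% and 63.6%, and between 1 and 2 they were 97.9% and 87.1%. Of the 189 genes that differed by over 2, all had the same direction in susceptible mice, and 116 of the 118 measured in the BNST did, where 78.8% were called. Stab2 (5.84), Gramd3 (-8.35), Cfap54 (1.91), Fcrls (-2.50), C1qc (-1.26), Glo1 (0.96), Alad (1.44) and Scg5 (0.99) were called in the BNST with these differences. Acp1 was smaller there (-0.98), and Rpl3 was not called (-0.01).

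**Figure D5:**
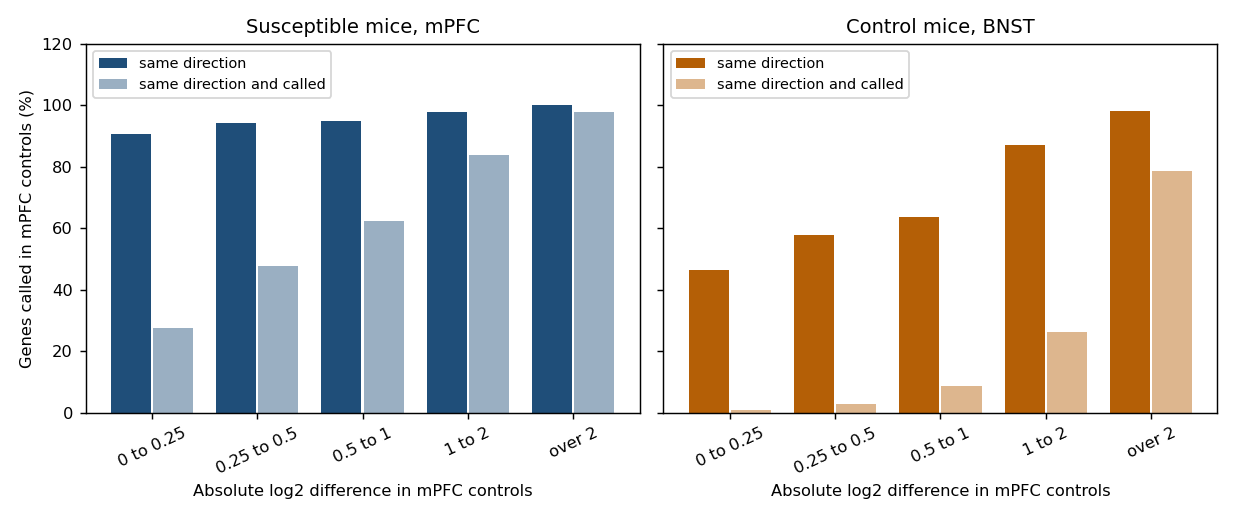
Share of the 5265 genes called in mPFC controls (vertical axis, percent) that had the same direction, or the same direction and a call, in susceptible mPFC mice and in BNST controls, by the absolute log2 difference in mPFC controls (horizontal axis). In the class over 2, the bars reach 100% and 97.9% in susceptible mice and 98.3% and 78.8% in the BNST.

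Cell type lists held up in part. Over all genes, 1480 were called higher and 1837 lower of 18946 in susceptible mice, and 198 higher and 241 lower of 17515 in the BNST. All 14 oligodendrocyte genes had a lower mean in D2 than in B6 susceptible mice, but the median was -0.23 and 1 was called, and in the BNST all 14 had a higher mean in D2 mice (median 0.53, none called). Of 14 microglia markers, 5 were lower and 1 higher in susceptible mice, and 3 lower and 1 higher in the BNST. Of 12 astrocyte markers, 4 were lower in susceptible mice, and in the BNST none was called and 9 had a higher mean in D2 mice. Interferon-stimulated genes had 10 lower and 1 higher of 41 in susceptible mice (median -0.15) and 1 lower of 39 in the BNST (median 0.01). Of 56 protocadherins, 25 were higher and 6 lower in susceptible mice, and 4 were called in each direction in the BNST. Of 54 potassium channels, 4 were called in each direction in susceptible mice and none in the BNST.

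Within each of the 4 library preparation sets that held both strains, between 91.6% and 99.4% of the 5265 called genes had the direction of the whole comparison. All of these genes were called from the same control mice, so high shares were built in and are no separate test.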

How the data were processed

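RNA depleted of ribosomal RNA was sequenced from single mice. The authors trimmed reads, removed duplicates, aligned the rest to GRCm38 with STAR, counted them on exons with HTSeq, kept genes of at least 1 CPM in at least 6 samples, applied voom and adjusted for library preparation sets with ComBat. The deposited mPFC values are log2 CPM from which depth and counting error cannot be recovered. The deposited BNST values are raw counts, with 12389258 to 16362207 counts in a control library, although their label names log CPM. The vHPC table was not used. Of the 18946 mPFC genes, 18863 had a position in GENCODE M21.

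All 32 mPFC libraries were fitted together with a mean per strain and phenotype in limma 3.58.1 (R 4.3.3, robust empirical Bayes, two-sided), and adjusted with Benjamini-Hochberg over all genes (threshold 0.05). BNST genes were tested with edgeR 4.0.16 (quasi-likelihood, TMM), with DESeq2 1.42.0 as an alternative. Replicates are separate mice, and 3 compared mice also gave vHPC libraries. Named genes were the 10 leading protein-coding and 3 other called genes each way, by −log10(p) times the difference, among genes whose groups did not overlap and whose mean was at least 0 in the higher group, the 5 with the largest CPM change each way, the 2 leading called members of each list each way, preset strain genes and the leaders of 5 windows. Other genes were named after their values had been seen. The compared groups, the lists and the rules were chosen with earlier results of these data known. Scripts were tested on simulated data. Some genes of the lists are not reported here.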

Additional observations from a re-analysis of the deposited data

Results flagged for a closer look

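In 172 groups of 6 control mice, each for a named gene or a list, the highest or lowest mouse stood apart from the others by Dixon's 95% criterion in 15 (8.72%), where chance gives about 1 in 20. B6 replicate 6, the only control with a number beginning with C7, was the mouse set apart at Gabra2 (7.12), Wdfy1 (5.982), Nnt (5.635), Gm28438 (4.933), C5ar2 (0.162) and the GABA receptor list (mean 7.198). At Gabra2, Wdfy1, Nnt and Gm28438 the other B6 mice numbered C5 or C7 had like values.

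B6 replicate 2 was set apart by low means of the olfactory bulb list (-0.654) and the stress axis list (4.003) and by Tyrp1 (-4.974). D2 replicate 6 had the high striatal neuron list mean (3.907) and a high Myoc value (-0.217). B6 replicate 5 was low at Rprl3 (-3.266) and Myo5a (10.094), and D2 replicate 4 was low at Hba-a2 (-5.058) and Zfp984 (-3.804). The part of dissection in these values was not tested.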

How the results depend on the processing

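Leaving out each mouse in turn gave 4520 to 5490 genes called in mPFC controls, 2954 to 3591 in susceptible mice, 0 to 2 for the difference between both contrasts and 337 to 558 in the BNST. With library set as a covariate and only the 12 control libraries 2483 were called in mPFC controls, and 570 with an absolute difference of at least 1 as well. Alternatives chosen after seeing the data gave 3345 (striatal neuron mean as a covariate), 2204 (only the 7 controls with the lowest striatal mean) and 2687 (against the C5 and C7 mice). In the BNST DESeq2 called 660 genes and a fit of the 10 controls alone 87, and without TMM factors 36.2% of called genes were higher against 45.1%. The other alternatives stayed within 1.5 times the count. Of 153 named genes, 150 were called. Without a change of direction, 44 lost their call with library set in the 12 controls and 36 with the striatal covariate. In the same way, 56 lost it among the 7 controls with the lowest striatal mean and 55 against the C5 and C7 mice. Beyond these, Olfr558 turned to 0.0927 (adjusted p = 0.82 in limma) among the 7 controls with the lowest striatal mean, and Cd59a to -0.33 (adjusted p = 0.146) against the C5 and C7 mice. Both thereby also lost their call, and the cause was not tested. No paired analysis was possible because replicate numbers here only follow the order of the records and no animal stands in both strains. Levels under 1 CPM rest on few reads.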

Other observations

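Ide, the insulin-degrading enzyme, was between 6.396 and 7.31 in the 9 B6 mice numbered C1 or C2, between 6.20 and 6.51 in the 9 numbered C5 or C7 and between 6.17 and 6.45 in the 14 D2 mice. In controls Ide differed by -0.55 ± 0.14 between D2 and B6 mice, and its difference within B6 was -0.57 ± 0.12 (limma adjusted p = 0.0509).

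Nnt was lower in D2 than in B6 controls in the BNST (-0.49, adjusted p = 0.0208 in edgeR), and in the mPFC of susceptible mice it differed by -0.56.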
